A study of Mus musculus with 9 samples.

Results

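The genes described here are 9 components of the AKT, TSC and mTOR pathway, measured by RNA-seq in mouse ovary: Akt1, Akt2, Tsc1, Tsc2, Rheb, Mtor, Rptor, Rictor and Rps6kb1. They were chosen by name, as the rows of the deposited gene tables with these symbols, and each symbol matched 1 row of the 55487 in every table. All 9 are protein-coding and passed the filter on low counts, so none had to be set aside. The libraries came from ovaries of C57BL/6 mice carrying an oocyte-specific knock-in of PIK3CA*, and 3 libraries represent each of postnatal days 8, 50 and 65. The series calls the tissue tumor samples. Every library carries the knock-in, ovaries without it were not analysed here, and no source used here names the promoter that limits the transgene to oocytes. Whether replicates are separate animals is not stated in the labels, and the p-values therefore cover only the spread among the libraries, some of which may be technical.

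AKT kinases are recruited to the cell membrane by the lipid that phosphoinositide 3-kinase makes, and they are the main relay of that signal. AKT phosphorylates and inhibits the TSC complex, in which Tsc2 is the enzyme that switches off the small GTPase Rheb and Tsc1 holds it stable. Active Rheb turns on mTOR complex 1, which contains raptor (Rptor) and phosphorylates S6 kinase (Rps6kb1) to promote protein synthesis, while mTOR complex 2 contains rictor (Rictor) and phosphorylates AKT itself. In the mouse ovary, loss of Tsc1 or Tsc2 in oocytes is known to wake primordial follicles from dormancy. All of these steps act on protein activity, which mRNA levels do not show.

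The library with the fewest expected counts held 14116908 and the largest 18868831, and 17747 genes were tested. Ribosomal protein genes took 10.46% to 13.5% of reads at day 65 and 11.96% in day 8 replicate 1, against 3.26% to 6.19% in the other 5 libraries. The TPM-weighted mean effective length was 1071 to 1195 bases at day 65 and 1203 bases in day 8 replicate 1, against 1564 to 1750 bases in the other libraries. No marker of the 9 cell type lists was at 0 in all 3 libraries of an age. The summed level of the 10 oocyte markers was 2890 to 3297 CPM at day 8, 95.4 to 138 CPM at day 50 and 63.02 to 109.3 CPM at day 65. The summed level of the 8 granulosa cell markers was 862 to 1506 CPM, 10586 to 12338 CPM and 5411 to 6391 CPM at the 3 ages. At day 8, theca marker sums were 164 to 508 CPM, smooth muscle 584 to 1142 CPM and macrophage 42.7 to 95.7 CPM. These lay below the day 50 sums (smooth muscle 2556 to 3366 CPM). Stromal fibroblast (1979 to 2516.5 CPM) and red cell sums (713 to 1541 CPM) at day 8 lay above those of day 50. Epithelium (908 to 1474 CPM) and endothelial sums (178 to 267 CPM) overlapped them. Between day 50 and day 65 the sums of the 6 stromal fibroblast markers went from 698 to 1313 up to 3671 to 3886 CPM, and those of the 4 red cell markers from 129 to 233 up to 1368 to 3032 CPM. The 6 theca and steroidogenic cell markers went from 3182 to 3734 down to 817 to 1265 CPM, and the 5 epithelium markers from 706 to 1037 down to 248 to 475 CPM. The sums of the 6 macrophage markers (264 to 350 CPM at day 50, 82.1 to 181 CPM at day 65) and 5 endothelial markers (239.8 to 295 CPM, then 142 to 188 CPM) were also lower. Those of the 5 smooth muscle markers overlapped. Single markers did not all follow their sums at this step (calls as defined below). Called higher and lower were 2 and 4 oocyte, 1 and 6 granulosa cell, 0 and 5 theca, 0 and 2 macrophage and 1 and 2 endothelial markers. For stromal fibroblast markers the counts were 4 and 0, for red cell 4 and 0, for epithelium 0 and 3 and for smooth muscle 0 and 1. All tested genes had 27.5% and 28.4%. At day 50 against day 8 the counts were 0 and 9 for oocyte, 7 and 0 for granulosa cell and 6 and 0 for theca markers. They were 0 and 5 for stromal fibroblast, 3 and 0 for macrophage and 3 and 0 for smooth muscle markers. Endothelial markers had 2 and 0, red cell 0 and 2 and epithelium 0 and 0, beside 19.5% and 21.4% of all tested genes. In such whole-ovary libraries, fewer cells of a type and less RNA per cell cannot be told apart, and the part of these shifts in the results below was not tested.

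Gene coordinates are those of the deposited tables (GRCm38), with strands from GENCODE M21. Levels are given as CPM (counts scaled to library size with TMM factors), in the order replicate 1, 2 and 3, and then as mean ± SD over n = 3 libraries. Differences are log2 fold changes from edgeR's quasi-likelihood test with their SE, and calls rest on an adjusted p under 0.05 (Benjamini-Hochberg, all 17747 genes). Because gene length moved with age in these libraries (below), each fold change was also computed after removing each library's smooth trend over gene length and GC content. In that fit the median log2 fold change of all genes was 0.10 at day 50 against day 8. It was 0.12 at day 65 against day 50 and 0.25 at day 65 against day 8.

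Akt1 (chromosome 12, 112653821 to 112674884, minus strand), the most widely expressed AKT kinase, was higher at day 65 than at day 8. It measured 162, 221 and 205 CPM at day 8, 251, 242 and 257 CPM at day 50 and 288, 273 and 317 CPM at day 65. The libraries of the 3 ages did not overlap, and the order was day 8, day 50, day 65. The mean went from 196 ± 30.6 to 250.2 ± 7.42 and 293 ± 22.6 CPM. From day 8 to day 65 Akt1 rose with a log2 fold change of 0.58 (SE 0.148, edgeR's adjusted p = 0.00625), which was 0.46 with the length and GC trend removed (edgeR's adjusted p = 0.00461). With library size as the only scaling the value was 0.28 and missed the threshold (edgeR's adjusted p = 0.244). On the TPM scale the direction turned: Akt1 stood at 143 ± 49.3 TPM at day 8 and 116 ± 20.7 TPM at day 65, and limma on log2(TPM + 1) gave -0.25 (adjusted p = 0.436), beside a median of -0.50 over all genes on that scale. Neither single step was called, with 0.35 (SE 0.148) from day 8 to day 50 (edgeR's adjusted p = 0.0806) and 0.23 (SE 0.148) from day 50 to day 65 (edgeR's adjusted p = 0.214). For the latter step limma on log2(TPM + 1) called Akt1 lower, with -0.69 (adjusted p = 0.0389), beside a median of -0.56 over all genes, so the direction of Akt1 at day 65 differed between scales.

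Akt2 (chromosome 7, 27591552 to 27640826, plus strand), the AKT kinase best known for insulin-stimulated glucose uptake, moved the other way. It measured 147, 195 and 195 CPM at day 8, 177, 156 and 161 CPM at day 50 and 96.5, 109.7 and 126 CPM at day 65. The day 65 libraries lay below all others, while those of day 8 and day 50 overlapped. Akt2 fell from 165 ± 10.99 CPM at day 50 to 111 ± 14.7 CPM at day 65, with a log2 fold change of -0.57 (SE 0.155, edgeR's adjusted p = 0.00997). It also fell from the day 8 mean of 179 ± 27.5 CPM to day 65, the log2 fold change being -0.69 (SE 0.155, edgeR's adjusted p = 0.00283). Both falls were called with the length and GC trend removed as well, at -0.41 (edgeR's adjusted p = 0.0144) and -0.59 (edgeR's adjusted p = 0.00130). From day 8 to day 50 the difference was -0.12 (SE 0.154) and was not called (edgeR's adjusted p = 0.554).

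Tsc1 (chromosome 2, 28641228 to 28691167, plus strand), the stabilizing subunit of the TSC complex, was lowest at day 65. It measured 40.3, 50.2 and 45.1 CPM at day 8, 31.9, 36.4 and 40.2 CPM at day 50 and 17.6, 19.9 and 18.5 CPM at day 65. The 3 ages did not overlap, although the highest day 50 library and the lowest day 8 library lay almost together. Tsc1 fell between days 50 and 65 from 36.2 ± 4.16 to 18.6 ± 1.17 CPM, with a log2 fold change of -0.95 (SE 0.140, edgeR's adjusted p = 0.000353), and from 45.2 ± 4.95 CPM at day 8, where the value was -1.28 (SE 0.141, edgeR's adjusted p = 3.60e-05). With the length and GC trend removed the first value was -0.12 and was no longer called (edgeR's adjusted p = 0.443), and the second was -0.38 and was called (edgeR's adjusted p = 0.0154). The step from day 8 to day 50 was not called, at -0.32 (SE 0.137, edgeR's adjusted p = 0.0849), or -0.27 with the trend removed (edgeR's adjusted p = 0.0842).

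Tsc2 (chromosome 17, 24595937 to 24632629, minus strand), the GTPase-activating subunit, was lowest at day 50. It measured 113, 136 and 123 CPM at day 8, 82.8, 82.9 and 94.8 CPM at day 50 and 133, 92.0 and 102 CPM at day 65. Day 8 and day 50 did not overlap, and day 65 overlapped each of them. Tsc2 fell between days 8 and 50 from 124 ± 11.5 to 86.8 ± 6.90 CPM, with a log2 fold change of -0.51 (SE 0.157, edgeR's adjusted p = 0.0246), which was -0.54 with the length and GC trend removed (edgeR's adjusted p = 0.0150). That call ended without day 8 replicate 2 (adjusted p = 0.0782) or 3 (0.0752), without day 50 replicate 1 (0.102), 2 (0.108) or 3 (0.0543), without a filter on low counts (0.0654) and in limma on log2(TPM + 1) (0.698). The day 65 mean was 109 ± 21.6 CPM, a log2 fold change of 0.33 (SE 0.157) against day 50 (edgeR's adjusted p = 0.0968) and -0.18 (SE 0.156) against day 8 (edgeR's adjusted p = 0.334), neither of which was called. Pkd1, on the other strand, overlaps 7.20% of the exon bases of Tsc2, and no source used here states whether the counting used strand.

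Rheb (chromosome 5, 24802823 to 24842624, minus strand), the GTPase that activates mTOR complex 1, showed no called difference between any 2 ages. It measured 105, 62.5 and 77.7 CPM at day 8, 84.4, 87.4 and 75.7 CPM at day 50 and 97.7, 125 and 93.9 CPM at day 65. The spread at day 8 was wide, with replicate 1 above every day 50 library and replicate 2 below all of them. Means were 81.6 ± 21.3, 82.5 ± 6.08 and 105 ± 16.8 CPM, and day 65 differed from day 8 with a log2 fold change of 0.37 (SE 0.190, edgeR's adjusted p = 0.113). Without day 8 replicate 1 this value was 0.59 and was called (edgeR's adjusted p = 0.00854). With the length and GC trend removed and all libraries kept it was 0.70 (edgeR's adjusted p = 0.000710), beside an all-gene median of 0.25. The difference between day 50 and day 8 was then 0.37 (edgeR's adjusted p = 0.0359), beside an all-gene median of 0.10. The latter call was lost when a replicate block was added to that fit (0.37, edgeR's adjusted p = 0.0601).

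Mtor (chromosome 4, 148448611 to 148557683, plus strand), the kinase shared by both mTOR complexes, was lowest at day 65. It measured 72.7, 82.1 and 68.7 CPM at day 8, 58.7, 63.6 and 69.2 CPM at day 50 and 32.3, 31.9 and 29.4 CPM at day 65. The day 65 libraries lay well below the others, which overlapped. Mtor fell between days 50 and 65 from 63.8 ± 5.27 to 31.2 ± 1.58 CPM, 2.05-fold, with a log2 fold change of -1.03 (SE 0.123, edgeR's adjusted p = 0.000123). Against the day 8 mean of 74.5 ± 6.86 CPM the value was -1.26 (SE 0.124, edgeR's adjusted p = 1.91e-05). With the length and GC trend removed these were -0.29, no longer called (edgeR's adjusted p = 0.0788), and -0.53, called (edgeR's adjusted p = 0.00374). The step of Mtor from day 8 to day 50 was not called, at -0.22 (SE 0.121, edgeR's adjusted p = 0.167), or -0.24 with the trend removed (edgeR's adjusted p = 0.146).

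Rptor (chromosome 11, 119602905 to 119899576, plus strand), which brings substrates to mTOR complex 1, had its highest CPM at day 50. It measured 52.9, 58.1 and 52.5 CPM at day 8, 60.96, 59.9 and 62.8 CPM at day 50 and 49.6, 43.5 and 45.2 CPM at day 65, with no overlap between ages. The difference between day 50 and day 8 was not called (log2 fold change 0.17, SE 0.111, edgeR's adjusted p = 0.249). It was 0.078 with the length and GC trend removed (edgeR's adjusted p = 0.643). Rptor fell between days 50 and 65 from 61.2 ± 1.48 to 46.1 ± 3.14 CPM, with a log2 fold change of -0.41 (SE 0.111, edgeR's adjusted p = 0.00997). With the length and GC trend removed the direction turned, to 0.22 (edgeR's adjusted p = 0.170), beside an all-gene median of 0.12. The value against day 8 turned from -0.24 to 0.30, beside an all-gene median of 0.25, with neither called. On log2(TPM + 1) limma called Rptor lower at day 65 than at day 8, with -0.86 (adjusted p = 0.0101), beside a median of -0.50 over all genes.

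Rictor (chromosome 15, 6708381 to 6800398, plus strand), the scaffold that defines mTOR complex 2, was called between every pair of ages. It measured 49.5, 52.96 and 50.5 CPM at day 8, 27.1, 29.04 and 34.5 CPM at day 50 and 9.79, 15.2 and 9.95 CPM at day 65. The 3 ages were far apart, and day 65 replicate 2 stood above the other two day 65 libraries. Rictor fell between days 8 and 50 from 50.98 ± 1.80 to 30.2 ± 3.81 CPM, with a log2 fold change of -0.76 (SE 0.178, edgeR's adjusted p = 0.00686). It fell again to 11.7 ± 3.11 CPM at day 65, with a value of -1.37 (SE 0.186, edgeR's adjusted p = 0.000229), and over the whole span 4.37-fold, with -2.13 (SE 0.188, edgeR's adjusted p = 1.05e-05). With the length and GC trend removed the 3 values were -0.51 (edgeR's adjusted p = 0.0173), -0.30 (edgeR's adjusted p = 0.135, no longer called) and -0.81 (edgeR's adjusted p = 0.000936). On log2(TPM + 1) the first step was -0.52 and missed the threshold (limma adjusted p = 0.156).

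Rps6kb1 (chromosome 11, 86498871 to 86544805, minus strand), which encodes the S6 kinase p70, had no called difference. It measured 39.3, 48.5 and 48.05 CPM at day 8, 40.9, 37.1 and 41.4 CPM at day 50 and 37.7, 41.2 and 39.7 CPM at day 65, and the 3 ages overlapped. Means were 45.3 ± 5.20, 39.8 ± 2.36 and 39.5 ± 1.75 CPM, and day 65 differed from day 50 with a log2 fold change of -0.0083 (SE 0.126, edgeR's adjusted p = 0.963). Without day 8 replicate 1, the value for day 65 against day 8 was -0.29 and was called lower (edgeR's adjusted p = 0.0444). Removing the length and GC trend turned the value against day 50 to 0.56 (edgeR's adjusted p = 0.00607), beside an all-gene median of 0.12. The value of Rps6kb1 against day 8 turned from -0.20 to 0.51 (edgeR's adjusted p = 0.00692), beside an all-gene median of 0.25. On log2(TPM + 1) limma called it lower at day 65 than at day 50, with -1.06 (adjusted p = 0.00592), beside a median of -0.56 over all genes. The direction for Rps6kb1 at day 65 therefore differed between scales.

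**Figure D1:**
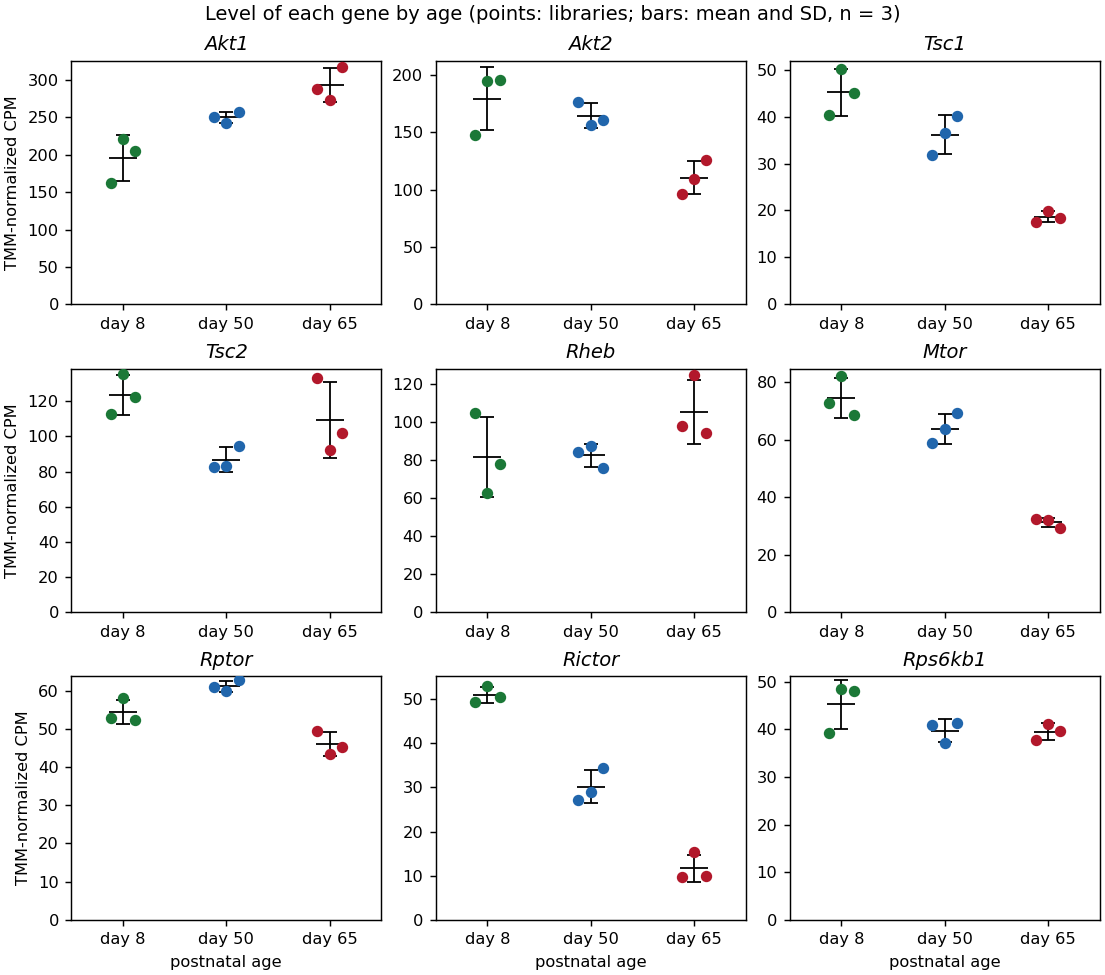
TMM-normalized CPM (vertical axis, starting at 0 in each panel) of the 9 genes at postnatal day 8, day 50 and day 65. Points are libraries and bars are mean and SD over n = 3. Rictor, Mtor and Tsc1 were lowest at day 65, Akt1 was highest there, and the ages overlapped for Rps6kb1.

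Counted together, 0 of the 9 genes were higher and 2 (Tsc2 and Rictor) were lower at day 50 than at day 8, beside 40.8% of all tested genes called (19.5% higher and 21.4% lower). Between day 50 and day 65, 0 were higher and 5 (Akt2, Tsc1, Mtor, Rptor and Rictor) were lower, beside 55.9% called (27.5% higher and 28.4% lower). Between day 8 and day 65, 1 (Akt1) was higher and 4 (Akt2, Tsc1, Mtor and Rictor) were lower, beside 62.3% called (29.7% higher and 32.6% lower). The median log2 fold changes of the 9 genes were -0.19, -0.41 and -0.24 in these comparisons, against -0.041, -0.055 and -0.052 over all tested genes. The libraries of 2 ages did not overlap for 5, 7 and 6 of the 9 genes, beside 57.7%, 68.0% and 65.7% of all tested genes. In both directions together, the shares called were below or near those of all genes. By direction, 55.6% of the 9 were lower at day 65 than at day 50 and 44.4% lower than at day 8, both above the shares of all genes. The first of these was 11.1% after removal of the length and GC trend (below). The 9 genes were chosen by name and no test of them as a set was made. The pairs of ages share libraries, so the counts are not independent.

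The fold changes at day 65 followed gene length. Among all tested genes, those of 5000 bases or more had a median log2 fold change of -0.79 between day 50 and day 65, with 62.6% called lower and 8.85% called higher, while the median of genes under 1000 bases was 1.04. The 4 long genes Tsc1, Mtor, Rptor and Rictor, with mean lengths of 6790, 6219.8, 5834 and 9051 bases, were all called lower in that comparison. For genes of 5000 to 7000 bases the median was -0.71 (quartiles -1.39 to -0.15, a range that holds Tsc1 at -0.95, Mtor at -1.03 and Rptor at -0.41). For genes of 7000 bases or more it was -0.94 (quartiles -1.45 to -0.37, a range that holds Rictor at -1.37). Against day 8, Rictor at -2.13 lay below the lower quartile of its length class (-1.76), while Mtor at -1.26 and Tsc1 at -1.28 lay inside theirs (-1.46 to 0.024).

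**Figure D2:**
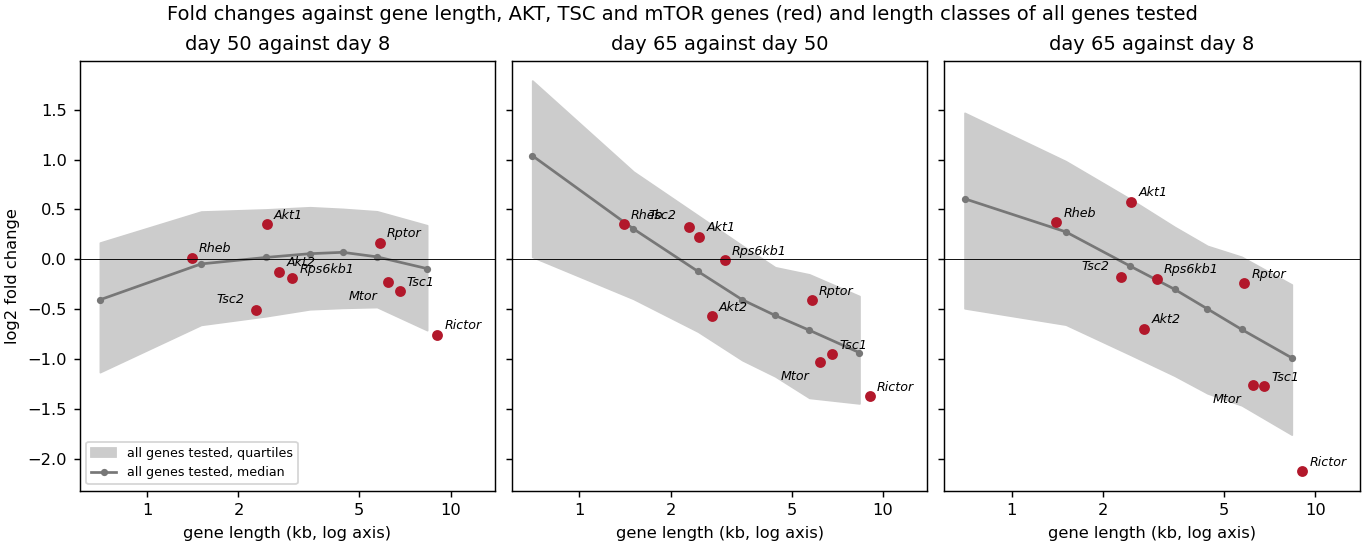
Log2 fold change (vertical axis) against gene length in kb (log axis) for the 3 pairs of ages. Red points are the 9 genes, the grey line is the median and the band the quartiles of all tested genes in 7 length classes. At day 65 the grey line fell with length, from 1.04 to -0.94 against day 50, and Tsc1, Mtor and Rptor lay within the band.

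With the length and GC trend removed, 46.1%, 50.7% and 64.2% of tested genes were called between day 8 and day 50, day 50 and day 65, and day 8 and day 65. Of the 9 genes, 1 (Rheb) was then higher and 2 (Tsc2 and Rictor) lower in the first comparison, beside 26.4% and 19.8% of all genes. In the second, 1 (Rps6kb1) was higher and 1 (Akt2) lower, beside 30.5% and 20.2%. In the third, 3 (Akt1, Rheb and Rps6kb1) were higher and 4 (Akt2, Tsc1, Mtor and Rictor) lower, beside 39.9% and 24.3%. That setting moved the median of all genes by 0.14, 0.17 and 0.30, and the median over all genes in the third comparison was 0.25. The calls over all genes between day 50 and day 65 went from 4883 higher and 5033 lower to 5407 and 3585, and between day 8 and day 65 from 5267 and 5790 to 7084 and 4316. With library size only they were 3407 higher and 6183 lower, and 3701 and 6946, and with limma on log2(TPM + 1) 1702 and 8326, and 2442 and 7934. Age and library properties coincide at day 65, where all 3 libraries had short mean effective lengths, and the 2 cannot be told apart there.

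**Figure D3:**
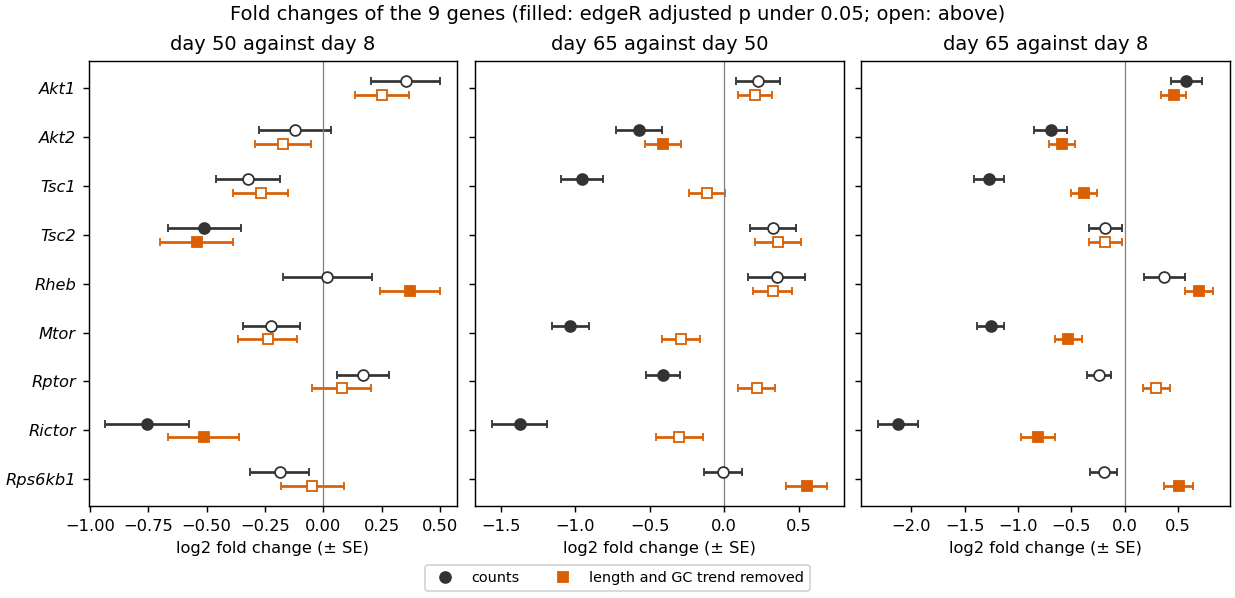
Log2 fold change with its SE (horizontal axis) of the 9 genes for the 3 pairs of ages. Black circles are from the counts and orange squares are after removal of the length and GC trend. Filled symbols had an edgeR adjusted p under 0.05. Akt2 kept its fall at day 65 in both, and Mtor, Tsc1 and Rictor kept their falls at day 65 against day 8 in both. Between day 50 and day 65, Mtor, Tsc1, Rptor and Rictor lost the call when the trend was removed, and Rptor changed direction.

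Levels per length were compared in TPM. At day 8 the order of mean TPM was Akt1 (143 ± 49.3), Akt2 (117 ± 42.7), Rheb, Tsc2, Rps6kb1, Mtor, Rptor, Tsc1 and Rictor (9.26 ± 2.26). Libraries overlapped between all neighbours in that order except Tsc2 (74.1 ± 21.1) and Rps6kb1 (27.8 ± 8.48), with day 8 replicate 1 the lowest library for each of the 9 genes. At day 50 the order was the same, from Akt1 at 186 ± 15.6 TPM to Rictor at 6.09 ± 1.14 TPM. Akt2 and Rheb, Rps6kb1 and Mtor, and Mtor and Rptor overlapped there. At day 65 Akt2 (39.2 ± 9.99 TPM) ranked after Rheb (99.3 ± 26.4 TPM) and Tsc2 (72.7 ± 13.2 TPM), and Mtor (5.57 ± 0.860 TPM) stood below Rptor (8.04 ± 0.700 TPM) in all 3 libraries. In CPM the day 65 means of Akt2, Tsc2 and Rheb were close, at 111, 109 and 105. The change in rank of Akt2 also carries effective lengths, which between day 50 and day 65 shortened for Tsc2 and Rheb and lengthened for Akt2 (below). Rictor, at 1.30 ± 0.436 TPM, was again last.

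Ratios within a library do not depend on its scaling. The Akt1 to Akt2 ratio of TPM was 1.28, 1.23 and 1.19 in the day 8 libraries, 1.55, 1.61 and 1.67 at day 50 and 3.35, 2.82 and 2.83 at day 65. The groups did not overlap, and the mean went from 1.23 ± 0.0457 to 1.61 ± 0.0600 and 3.00 ± 0.299 (n = 3 each). The exact permutation test (two-sided) gave p = 0.1 for each pair of ages, the smallest that 3 against 3 libraries can give. These 2 genes have similar mean lengths, 2478 and 2727 bases, but differ in GC content (59.4% and 54.8%). With the length and GC trend removed, the log2 fold changes between day 50 and day 65 were 0.21 for Akt1 and -0.41 for Akt2. In the counts they were 0.23 and -0.57, so this ratio also carries part of the trend.

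The Rptor to Rictor ratio, which sets the defining subunit of mTOR complex 1 against that of complex 2 at the mRNA level, was 1.60, 1.75 and 1.71 at day 8, 3.58, 3.14 and 2.59 at day 50 and 7.77, 4.76 and 7.06 at day 65. It too differed between all ages without overlap, with means of 1.69 ± 0.0774, 3.10 ± 0.496 and 6.53 ± 1.57 (n = 3 each, exact permutation p = 0.1 for each pair). Rictor is the longer of these genes, so the ratio also carries the length trend given above. The Tsc1 to Tsc2 ratio was 0.151, 0.156 and 0.132 at day 8, 0.139, 0.124 and 0.146 at day 50 and 0.0402, 0.0487 and 0.0412 at day 65. Day 8 and day 50 overlapped (exact permutation p = 0.4, n = 3 each), and day 65 was lower in every library (mean 0.0434 ± 0.00463, against 0.136 ± 0.0115 at day 50, exact permutation p = 0.1, n = 3 each). Tsc1, at a mean length of 6790 bases, is longer than Tsc2 at 2290 bases, so this last ratio also carries the length trend. With that trend removed, the log2 fold change of Tsc1 between day 50 and day 65 was -0.12 (edgeR's adjusted p = 0.443). That of Tsc2 was 0.36 (edgeR's adjusted p = 0.0745). The lengths that RSEM assigned to Tsc2 enter the Tsc1 to Tsc2 ratio too, as described next.

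**Figure D4:**
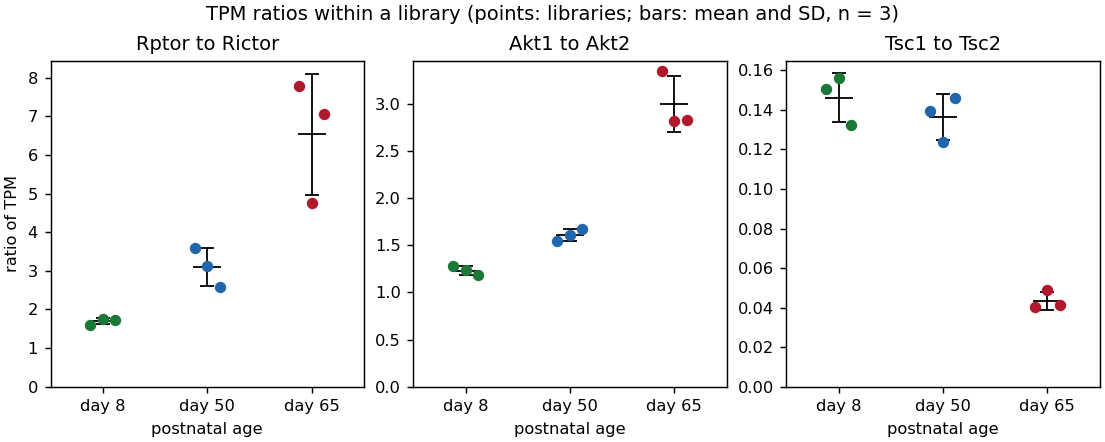
Ratio of TPM within each library (vertical axis, starting at 0) for Rptor to Rictor, Akt1 to Akt2 and Tsc1 to Tsc2. Points are libraries and bars are mean and SD over n = 3. Both the Rptor to Rictor and the Akt1 to Akt2 ratio were highest in the 3 day 65 libraries, and the Tsc1 to Tsc2 ratio was lowest there.

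The deposited effective length of a gene is the mean over its annotated transcripts, weighted by their estimated abundance, so it moves when reads are assigned to shorter or longer transcripts. This readout was chosen after its values were seen. For Tsc2 it was 2604, 3012 and 2545 bases at day 8, 2635, 2101 and 2463 bases at day 50 and 1832, 1466 and 1282 bases at day 65. The day 65 libraries lay below the 6 others, and the mean went from 2399 ± 273 bases at day 50 to 1526 ± 279.8 bases at day 65 (log2 ratio -0.66, exact permutation p = 0.1, n = 3 each). GENCODE M21 annotates 22 transcripts of Tsc2, of 137 to 6266 bases, of which 8 are protein-coding and 10 are retained-intron transcripts. At day 65 the TPM of Tsc2 was therefore divided by a shorter length than at day 50, while its CPM was not. Rheb also had shorter values at day 65, 1089 ± 65.1 bases against 1459 ± 106 bases at day 50, as did Tsc1, at 6048 ± 431 against 7301 ± 160.0 bases (n = 3 each). Akt1, Akt2 and Rps6kb1 had longer values at day 65 than at day 50, with no overlap, and Mtor, Rptor and Rictor overlapped. So 3 of 9 were shorter and 3 of 9 longer, beside 22.6% and 22.7% of the 14235 tested genes with 2 or more transcripts, and 21.1% and 23.5% were shorter and longer at day 65 than at day 8. Of those genes, 5.81% had, between day 50 and day 65, a log2 ratio as low as that of Tsc2 or lower.

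**Figure D5:**
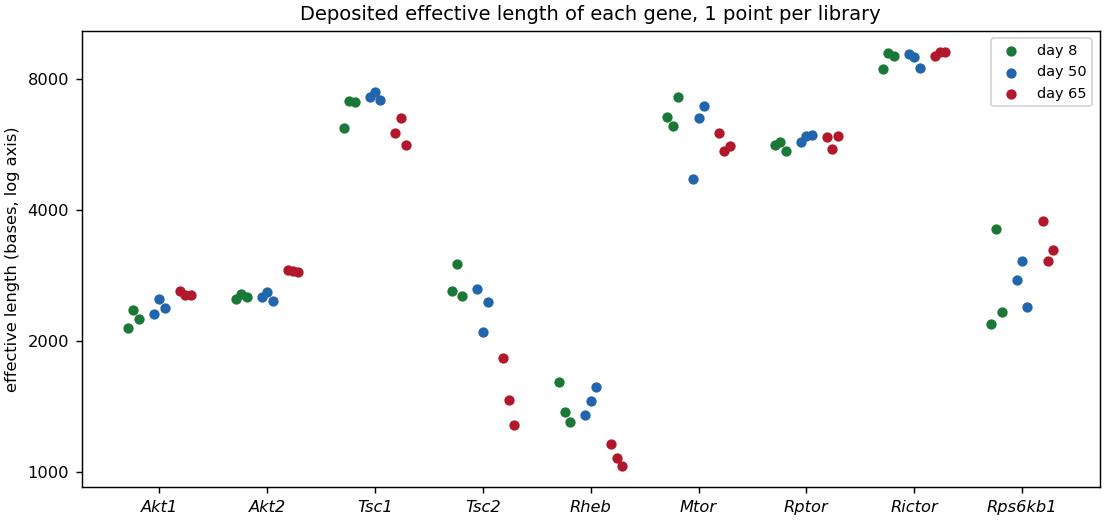
Deposited effective length in bases (log axis) of each gene, with 1 point per library coloured by age. The 3 day 65 points of Tsc2, at 1282 to 1832 bases, and of Rheb lay below those of both earlier ages, while those of Akt1 and Akt2 lay above.

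Promoter sequence is shown for Rictor, Mtor and Tsc1, which had the lowest log2 fold changes of the 9 genes at day 65 against day 8, and for Akt1, the gene called higher in that comparison. The choice was made with these values known, and the starts of the other 5 genes are described by their motif counts. The 250 bases before the RefSeq start (GRCm38.p6, 5′ to 3′ on the gene's strand) of Akt1 (chr12:112674885-112675134, minus strand), Rictor (chr15:6708131-6708380, plus strand), Mtor (chr4:148448332-148448581, plus strand) and Tsc1 (chr2:28640983-28641232, plus strand) are shown, with matches to the searched motifs in capitals.
Akt1: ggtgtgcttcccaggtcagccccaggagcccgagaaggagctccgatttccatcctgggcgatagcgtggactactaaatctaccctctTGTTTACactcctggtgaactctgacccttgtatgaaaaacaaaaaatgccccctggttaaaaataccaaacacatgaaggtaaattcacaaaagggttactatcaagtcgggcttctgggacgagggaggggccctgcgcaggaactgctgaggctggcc
Rictor: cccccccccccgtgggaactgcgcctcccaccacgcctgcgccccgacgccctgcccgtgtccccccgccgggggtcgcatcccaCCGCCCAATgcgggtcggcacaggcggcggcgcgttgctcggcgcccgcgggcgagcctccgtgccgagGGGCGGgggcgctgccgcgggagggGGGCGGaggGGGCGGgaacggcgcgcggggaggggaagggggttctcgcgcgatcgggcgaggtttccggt
Mtor: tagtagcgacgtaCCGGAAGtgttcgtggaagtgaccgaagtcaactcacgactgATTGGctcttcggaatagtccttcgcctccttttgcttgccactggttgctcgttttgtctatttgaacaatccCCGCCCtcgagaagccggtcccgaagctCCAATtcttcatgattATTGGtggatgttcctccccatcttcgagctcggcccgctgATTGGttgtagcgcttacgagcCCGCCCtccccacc
Tsc1: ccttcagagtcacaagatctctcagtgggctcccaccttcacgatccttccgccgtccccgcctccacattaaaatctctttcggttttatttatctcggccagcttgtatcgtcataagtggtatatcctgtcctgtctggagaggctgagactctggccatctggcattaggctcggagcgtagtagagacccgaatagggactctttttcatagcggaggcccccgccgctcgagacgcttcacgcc

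The motifs were searched on both strands, and all 9 genes matched the RefSeq table by symbol. They were the GC box GGGCGG (in 32.7% of the 32851 promoters of that table, over the same 250 bases), the ETS site CCGGAAG (6.91%), the NRF1 consensus site (0.782%), the CCAAT box (CCAAT, 33.8%), the E-box CACGTG (6.02%), the CRE TGACGTCA (1.55%), the FOXO site GTAAACA (3.17%) and the TATA box TATAAA (12.4%). Akt1 held 1 FOXO site, which starts 161 bases before the gene start, and none of the others. A second RefSeq start of Akt1 had 4 GC boxes. Rictor, with 81.2% G and C, held 4 GC boxes and 1 CCAAT box that overlaps the first of them. Mtor held 4 CCAAT boxes, 2 GC boxes and 1 ETS site, and Tsc1 held no match to any of the 8. Elsewhere, Rheb held 1 E-box and 1 GC box, Tsc2 1 ETS site and Akt2 1 GC box at 1 of its 4 RefSeq starts, and Rptor and Rps6kb1 held no match. A match describes letters in the window and says nothing about whether a factor bound there.

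Among other genes of the pathway, in a list of 11 AKT inputs and regulators of which 10 were tested, 2 were higher and 5 lower at day 50 than at day 8, beside 19.5% and 21.4% of all tested genes. At day 65, 0 were higher and 8 lower against day 50, and 0 were higher and 8 lower against day 8, beside 28.4% and 32.6% of all tested genes called lower. Pdpk1, the kinase that activates AKT, fell from 69.9 ± 5.24 CPM at day 8 to 41.2 ± 6.62 at day 50 and 18.00 ± 1.16 at day 65 (edgeR's adjusted p = 0.00169 and 0.000132 for the steps), though the second step was not called with the length and GC trend removed (-0.30, edgeR's adjusted p = 0.0558), and the first not in limma on log2(TPM + 1) (adjusted p = 0.111). Tcl1, an AKT-binding protein that is abundant in oocytes, fell from 65.4 ± 9.87 to 5.57 ± 1.59 CPM by day 50 (edgeR's adjusted p = 0.00183), as the oocyte marker sum did. Gab2, a docking protein for phosphoinositide 3-kinase, rose from 97.1 ± 11.5 to 318 ± 21.3 CPM, then fell back to 92.6 ± 14.2 CPM (edgeR's adjusted p = 2.18e-05 and 3.27e-05). Phlpp1, a phosphatase of AKT, fell from 23.3 ± 1.47 CPM at day 50 to 7.77 ± 2.10 CPM at day 65 (edgeR's adjusted p = 0.000225). With the trend removed, 2 were higher and 6 lower at the first step, 0 and 6 at the second, and 1 and 7 over both. The shares of all genes in that fit were 26.4% and 19.8%, 30.5% and 20.2%, and 39.9% and 24.3%.

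Of the 9 partners of the mTOR and TSC complexes, 1 was higher and 3 were lower at day 50 than at day 8, beside 19.5% and 21.4% of all tested genes. At day 65, 3 were higher and 3 lower than at day 50, beside 27.5% and 28.4%, and 3 were higher and 4 lower than at day 8, beside 29.7% and 32.6%. Among the mTOR complex 2 partners, Prr5 and Prr5l fell by day 50, while Mapkap1 did not. Means of Mapkap1 over the 3 ages were 49.6 ± 5.92, 49.6 ± 1.93 and 58.9 ± 5.40 CPM. Prr5 went from 37.5 ± 3.85 to 9.72 ± 1.70 CPM and then rose to 25.9 ± 5.94 CPM (edgeR's adjusted p = 5.23e-05 and 0.000314), while Prr5l went from 15.3 ± 4.11 to 2.86 ± 0.324 CPM (edgeR's adjusted p = 6.20e-05) and was 1.46 ± 0.119 CPM at day 65. Akt1s1, the AKT substrate PRAS40 that restrains mTOR complex 1, rose between days 50 and 65 from 81.1 ± 1.00 to 158 ± 40.7 CPM (edgeR's adjusted p = 0.000881), though on log2(TPM + 1) the value was -0.05. Deptor, an inhibitor that binds mTOR, fell from 59.7 ± 8.13 to 31.5 ± 6.30 CPM by day 50 (edgeR's adjusted p = 0.0127), a call that ended without day 50 replicate 1 (adjusted p = 0.0649) or 2 (0.0655). With the trend removed, the partners counted 2 higher and 3 lower, 4 and 1, and 4 and 3 in the same order. All genes in that fit had 26.4% and 19.8%, 30.5% and 20.2%, and 39.9% and 24.3%.

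Of the 29 genes of the amino acid and lysosome inputs, 3 were higher and 3 lower at day 50 than at day 8, both below the 19.5% and 21.4% of all tested genes. At day 65, 10 were higher and 10 lower than at day 50 (27.5% and 28.4% of all genes), and 5 were higher and 9 lower than at day 8 (29.7% and 32.6%). Rragd, one of the Rag GTPases that bring mTOR complex 1 to the lysosome, fell between days 50 and 65 from 67.4 ± 5.26 to 10.9 ± 2.64 CPM (edgeR's adjusted p = 2.54e-05). Sesn3, a sestrin that restrains mTOR complex 1, fell from 191 ± 20.98 to 49.4 ± 8.91 CPM (edgeR's adjusted p = 2.76e-05), and Sesn1 from 42.1 ± 0.464 to 18.3 ± 5.48 CPM (edgeR's adjusted p = 0.000642). The sestrin gene Sesn2 rose from 13.2 ± 2.78 to 33.5 ± 5.72 CPM by day 50 (edgeR's adjusted p = 0.00176). Lamtor2, a short gene for a subunit of the lysosomal anchor, rose between days 50 and 65 from 31.8 ± 1.85 to 81.3 ± 13.6 CPM (edgeR's adjusted p = 6.80e-05). Nprl2, a subunit of a complex that inhibits the Rag GTPases, fell from 34.4 ± 3.17 to 13.3 ± 1.79 CPM by day 50 (edgeR's adjusted p = 9.79e-05). With the trend removed, 11 of the 29 were higher and 5 lower at day 50 than at day 8, beside 26.4% and 19.8% of all genes. The counts were 11 and 7 at day 65 against day 50 (30.5% and 20.2%), and 12 and 7 at day 65 against day 8 (39.9% and 24.3%).

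Of the 11 energy and stress inputs, 4 were higher and 1 lower at day 50 than at day 8, where all tested genes had 19.5% and 21.4%. At day 65, 4 were higher and 5 lower than at day 50 (all genes 27.5% and 28.4%), and 3 were higher and 3 lower than at day 8 (all genes 29.7% and 32.6%). Prkaa2, a catalytic subunit of AMPK, which activates the TSC complex, rose from 13.8 ± 1.90 to 42.1 ± 2.18 CPM, then fell back to 3.71 ± 1.56 CPM (edgeR's adjusted p = 0.000473 and 1.95e-05). Ddit4, the stress-induced inhibitor REDD1, rose from 114 ± 12.2 to 209 ± 31.7 CPM, then fell back to 141 ± 13.9 CPM (edgeR's adjusted p = 0.00119 and 0.00895). Stk11, which encodes LKB1, the kinase upstream of AMPK, rose from 61.5 ± 12.3 to 105 ± 4.23 CPM by day 50 (edgeR's adjusted p = 0.00916) and was 169 ± 37.6 CPM at day 65. Removing the trend gave 5 higher and 1 lower, 4 and 3, and 4 and 1 of these 11. Over all genes that fit gave 26.4% and 19.8%, 30.5% and 20.2%, and 39.9% and 24.3%.

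Of the 19 mTOR complex 1 substrates and translation factors, 2 were higher and 3 lower at day 50 than at day 8 (all tested genes 19.5% and 21.4%). At day 65, 9 were higher and 3 lower than at day 50, beside 27.5% and 28.4% of all genes, and 8 were higher and 4 lower than at day 8, beside 29.7% and 32.6%. Rps6kb2, the second S6 kinase gene, rose between days 50 and 65 from 17.6 ± 1.43 to 55.02 ± 9.43 CPM (edgeR's adjusted p = 3.71e-05), a step at which Rps6kb1 was not called. Eif4ebp1, the translation repressor that mTOR complex 1 inactivates, rose from 50.3 ± 5.14 to 142 ± 37.1 CPM (edgeR's adjusted p = 0.000238). Rps6, the ribosomal protein that S6 kinase phosphorylates, rose from 620.2 ± 17.3 to 2252 ± 466 CPM (edgeR's adjusted p = 0.00206), as the ribosomal protein share of reads did. Ulk1, the autophagy kinase that mTOR complex 1 inhibits, fell from 87.7 ± 6.58 to 58.4 ± 2.55 CPM (edgeR's adjusted p = 0.0168), a call that ended without day 50 replicate 3 (adjusted p = 0.0518) or day 65 replicate 1 (just above the threshold) and with the length and GC trend removed (0.342). Grb10, an adaptor that mTOR complex 1 stabilizes, fell from 126 ± 10.4 to 41.2 ± 14.6 CPM by day 50 (edgeR's adjusted p = 0.00278). Removing the trend gave 3 higher and 2 lower of the 19 at the first step, beside 26.4% and 19.8% of all genes. It gave 10 and 1 both at day 65 against day 50 (30.5% and 20.2%) and against day 8 (39.9% and 24.3%).

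Of the 9 AKT and mTOR complex 2 substrates, 8 were tested, with 2 higher and 1 lower at day 50 than at day 8 (19.5% and 21.4% over all genes). The counts were 1 higher and 5 lower at day 65 against day 50 (27.5% and 28.4% over all genes) and 1 and 4 against day 8 (29.7% and 32.6%). Tbc1d4, the AKT substrate AS160 that controls glucose transporter traffic, rose from 28.3 ± 5.23 to 171 ± 22.3 CPM, then fell back to 14.1 ± 3.07 CPM (edgeR's adjusted p = 7.73e-06 and 7.65e-06). The glycogen synthase kinase genes parted between days 50 and 65. Gsk3a rose from 123 ± 2.40 to 222 ± 58.8 CPM (edgeR's adjusted p = 0.00433). Gsk3b fell from 158 ± 15.3 to 99.2 ± 8.52 CPM (edgeR's adjusted p = 0.00399), and its log2 fold change turned to 0.39 with the trend removed. Removing the trend gave 4 higher and 1 lower, 1 and 1, and 2 and 3 of these 8. For all genes that fit had shares of 26.4% and 19.8%, 30.5% and 20.2%, and 39.9% and 24.3%.

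Of the 13 genes of ATF4 and amino acid synthesis output, which mTOR complex 1 can raise through the transcription factor ATF4, 3 were higher and 3 lower at day 50 than at day 8, where 19.5% and 21.4% of all genes were. At day 65, 7 were higher and 0 lower than at day 50, beside 27.5% and 28.4% of all tested genes. Against day 8, 8 were higher and 1 lower, beside 29.7% and 32.6%. With the trend removed, 5 were higher and 3 lower at the first step, 9 and 0 at the second, and 8 and 1 over both. The all-gene shares of that fit were 26.4% and 19.8%, 30.5% and 20.2%, and 39.9% and 24.3%. Between days 50 and 65 Atf4 itself rose from 119.8 ± 8.73 to 283 ± 10.7 CPM (edgeR's adjusted p = 6.54e-05). Slc3a2, the shared heavy chain of amino acid transporters, rose from 176 ± 14.9 to 610.0 ± 195 CPM (edgeR's adjusted p = 0.000126). The serine synthesis genes Phgdh and Psat1 fell by day 50 and then rose. Phgdh went from 118 ± 11.7 to 51.2 ± 1.95 and 121 ± 8.93 CPM (edgeR's adjusted p = 4.36e-05 and 5.23e-05), and Psat1 from 64.9 ± 12.8 to 24.2 ± 0.684 and 63.8 ± 7.27 CPM (edgeR's adjusted p = 7.98e-05 and 9.94e-05). Slc7a11, the cystine transporter, fell from 16.2 ± 0.994 to 1.57 ± 0.186 CPM by day 50 (edgeR's adjusted p = 8.52e-06) and was 1.45 ± 0.437 CPM at day 65. Several rises at day 65 against day 50 named above were not called in limma on log2(TPM + 1), where the median gene stood at -0.56. There the adjusted p was 0.112 for Atf4, 0.503 for Phgdh, 0.0754 for Rps6kb2, 0.0647 for Lamtor2, 0.120 for Prr5 and 0.956 for Gsk3a.

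Patterns over the 9 libraries were compared by Pearson correlation of log2 CPM, as a description that shares age, depth and gene length between genes. Among the 9, Tsc1 and Mtor (r = 0.99), Tsc1 and Rictor (0.98) and Mtor and Rictor (0.96) were most alike, and Akt1 and Rictor (-0.84) least alike. The genes most like each one, among well-expressed named protein-coding genes, were Zdhhc18 (0.988) and Ehmt2 (0.981) for Akt1 and Cav1 (0.990) and Hspa2 (0.988) for Akt2. They were Bbx (0.997) and Trip12 (0.997) for Tsc1, Zbtb9 (0.974) and Wipi2 (0.959) for Tsc2, and Rbmxl1 (0.980) for Rheb. They were Parp4 (0.995) and Edrf1 (0.990) for Mtor, Iqsec2 (0.984) and Ubr2 (0.978) for Rptor, and Trpm7 (0.997) and Synj1 (0.997) for Rictor. Rps6kb1 had the weakest likeness, with Nbl1 (0.961) and Lrch4 (0.935).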

How the data were processed

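RNA-seq was measured in 9 mouse ovary libraries, 3 at each of 3 ages, grouped by the labelled age. RNA came from a column kit and libraries from an mRNA kit, per the labels' protocols. The genome build was GRCm38 (mm10), per the submitters' processing notes. The deposited expected counts are RSEM gene estimates, not normalized, per the file headers. The deposited TPM and FPKM values are RSEM's, relative to effective length, per the file headers. No source used here gives the aligner, software versions or strand setting.

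Expected counts were rounded, filtered with filterByExpr (17747 of 55487 rows kept), scaled with TMM and tested in R 4.3.3 with edgeR 4.0.16 (quasi-likelihood, robust, two-sided, 1 model over the 3 ages, so the spread is shared). TPM ratios were compared with exact permutation tests. The trend on gene length and GC content was fitted per library with mgcv and entered as offsets. Gene length was RSEM's length averaged over the 9 libraries, and GC content came from GENCODE M21 transcripts. RSEM's length depends on the transcripts to which reads were assigned, so this covariate comes from the same libraries. Alternatives were DESeq2 1.42.0, limma 3.58.1 on log2(TPM + 1), other scalings and filters, and fits without each library. The fits were tested on simulated data that held no length or GC trend. Those data could not show how well that trend was removed.

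All 9 genes are named. Of each pathway list, up to 4 called genes per comparison were eligible to be named, those with the smallest p in the commoner direction with 1 from the other, and a selection is given. The genes most alike were the 2 highest correlations with a mean of at least 10 CPM. Some genes that these rules name are not reported here. The members and lists were chosen with earlier results of these data known. Total counts of 14116908 to 18868831 per library set the precision of low genes.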

Additional observations from a re-analysis of the deposited data

How the results depend on the processing

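Deviations of same-numbered libraries of different ages from their age means correlated at -0.0432 to 0.0520. Those of differently numbered libraries correlated at -0.106 to 0.0940. With 3 libraries per age, these values cannot decide whether the numbers pair the libraries. A replicate block gave 6735, 9368 and 10736 calls over all genes, against 7249, 9916 and 11057, and left the counts of the 9 genes as they were. Of 243 fold changes of the 9 genes under other settings, 205 kept direction and call, 10 lost the call, 10 gained it and 18 turned, and of 243 without 1 library 229, 5, 5 and 4 did. The causes were not tested. At day 50 against day 8, the genes called higher were 1 with the length and GC trend removed, 0 with the replicate block added to that fit, and 0 to 1 without 1 library, and those called lower were 1 with no filter on low counts, 0 in limma on log2(TPM + 1) and 1 to 3 without 1 library. At day 65 against day 50, those higher were 1 with only the 2 ages compared and with the trend removed, with or without the replicate block, and 0 to 1 without 1 library. Those lower were 1 with the trend removed, with or without the block. In limma on log2(TPM + 1), Akt2, Tsc1, Mtor, Rptor and Rictor were still called lower at that step. Akt1 (limma adjusted p = 0.0389) and Rps6kb1 (0.00592) were called lower as well, beside 8326 of all genes. At day 65 against day 8, those higher were 0 with library size only and in limma, 3 with the trend removed, with or without the block, and 1 to 2 without 1 library, and those lower were 7 with library size only and 4 to 5 without 1 library.

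These log2 fold changes turned. At day 50 against day 8 in limma, Akt2 was 0.057 and Mtor 0.10, and Rheb was -0.00451 in DESeq2, -0.013 with DESeq2 size factors and -0.12 to 0.24 without 1 library. At day 65 against day 50, Akt1 was -0.033 with library size only and -0.69 in limma (called, adjusted p = 0.0389), where Rheb was -0.052, Akt1s1 -0.0498, Mlst8 -0.64 and Strada -0.10. With the trend removed, without and with the replicate block, Rptor was 0.22 and 0.21, Rps6kb1 0.56 and 0.56, Prkaa1 0.32 and 0.32, and Gsk3b 0.39 and 0.38. Rps6kb1 was 0.00143 with only the 2 ages compared and -0.052 to 0.024 without 1 library. At day 65 against day 8 in limma, Akt1 was -0.25, Tsc2 0.00238, Prkag2 -0.24 and Prkag1 -0.31, and with the trend removed, without and with the block, Rptor was 0.30 and 0.29 and Rps6kb1 0.51 and 0.51. The median of all genes moved by -0.26 and -0.28 at day 65 with library size only, and by -0.51 and -0.45 in limma. Without 1 library, the log2 ratio of effective lengths between day 65 and day 50 ran from -0.239 to 0.0372 for Mtor and from -0.0402 to 0.00937 for Rptor.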
